A study of Mus musculus with 8 samples.

Results

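The genes described here form the transforming growth factor beta (TGF-beta) and bone morphogenetic protein (BMP) pathway, read from secreted ligand to nuclear target, in mouse embryonic fibroblasts that carry 1 of 2 STAT5 mutants. They were chosen by name, with earlier results of these data known. The 49 gene symbols cover ligands, latent binding proteins, receptors, extracellular antagonists, SMADs and ID genes. A gene counted as measured where a probe set carried its symbol alone. By this rule 47 of the 49 genes were measured, by 102 probe sets, out of 18193 named genes on the array. Gdf6 and Gdf15 had no such probe set and are not analysed here.

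All cells were Stat5-null mouse embryonic fibroblasts of strain C57BL/6 into which a vector with a mutant STAT5 had been brought by retroviral infection. The EA mutant has the change EE to AA in what the labels call a binding domain, and the YF mutant has Y694F at a phosphorylation site. There were 4 groups of 2 arrays, which the design text calls biological duplicates: EA cells given growth hormone for 120 minutes, EA cells without stimulation, YF cells given growth hormone for 120 minutes, and YF cells without stimulation. Cells with wild-type STAT5 or an empty vector are not analysed here, the labels do not say whether the 4 arrays of a mutant came from 1 infected population or several, and mutant and infected population cannot be told apart.

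TGF-beta ligands, activins and BMPs are secreted dimers that bring together type I and type II serine/threonine kinase receptors. TGF-beta and activin receptors phosphorylate SMAD2 and SMAD3, BMP receptors phosphorylate SMAD1, SMAD5 and SMAD9, and both kinds of SMAD join SMAD4 and enter the nucleus. In fibroblasts the TGF-beta side is known for matrix and contractile genes, and the BMP side for ID genes, which encode inhibitors of basic helix-loop-helix transcription factors. Much of the control lies outside the cell, in latent binding proteins that store TGF-beta in the matrix and in antagonists that trap BMPs or activins.

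Expression is given on the log2 scale, and each gene is described by its brightest probe set unless stated. Each difference is EA minus YF or hormone minus none, SE is its moderated standard error from limma over the 8 arrays, and a gene passed where its p-value, adjusted by the Benjamini-Hochberg method over 45037 probe sets, was under 0.05. Of all probe sets tested, 55.0% had a mean below 4, and the scale of values there is unknown, so a fold with a side below 4 has an uncertain size. Replicate arrays correlated at 0.996 to 0.998, and the first principal component (69.9% of the variance) separated EA from YF arrays. Replicate 1 of YF cells with hormone stood apart on the second component, at -55.81 against -3.28 to 32.58 on the other YF arrays. Stat5a averaged 4.83 ± 0.44 in EA cells and 8.04 ± 0.32 in YF cells (SD, n = 4 each), a difference of -3.20 (SE 0.22, adjusted p = 0.00094), and Stat5b lay below 4 on every array. The sources used here do not say whether these probes read the introduced STAT5. The part of this Stat5a difference in the differences between EA and YF cells was not tested.

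The ligands Bmp2 and Bmp4, all 4 ID genes, the decoy receptor Bambi and the antagonists Chrdl1, Fst and Fstl3 were lower in EA cells, while the co-receptor Tgfbr3, the receptors Tgfbr2 and Bmpr1a and the antagonist Chrd were higher. Averaged over treatments, 25 of the 47 genes passed, 6 of them higher in EA cells and 19 lower. Among all named genes 22.9% passed, 12.3% higher and 10.5% lower. Of the 47 genes, 8 were below 4 in every group (Bmp6, Bmp7, Gdf5, Gdf10, Gdf11, Acvr2b, Nog and Smad9) and none of these passed, so all 25 lay among the 39 genes with a mean of 4 or more in at least 1 group. Among all named genes with such a mean, 36.7% passed, 19.8% higher and 16.8% lower. The median difference was -0.07 over the 47 genes and 0.02 over all named genes.

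The same comparison within each treatment gave fewer calls. With hormone, 17 of the 47 genes passed, 4 higher and 13 lower in EA cells, against 13.5% of all named genes (6.50% higher and 7.03% lower). Without hormone, 16 passed, 3 higher and 13 lower, against 15.0% of all named genes (8.28% higher and 6.74% lower). All 4 EA arrays lay above all 4 YF arrays for 8 of the 47 genes and below them for 19, which was the case for 13.8% and 11.4% of all named genes. Without YF replicate 2, 16 genes passed in the average and 9 without hormone; without EA replicate 1 or YF replicate 1, 10 passed without hormone; and without replicate 2 of EA cells with hormone, 9 passed with hormone. Without the array that stood apart, 23 genes passed in the average, 13 with hormone and 20 without. The share of all named genes that passed in these fits with an array left out is not given here. In whole cultures, fewer cells of a type and less RNA per cell cannot be told apart.

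**Figure D1:**
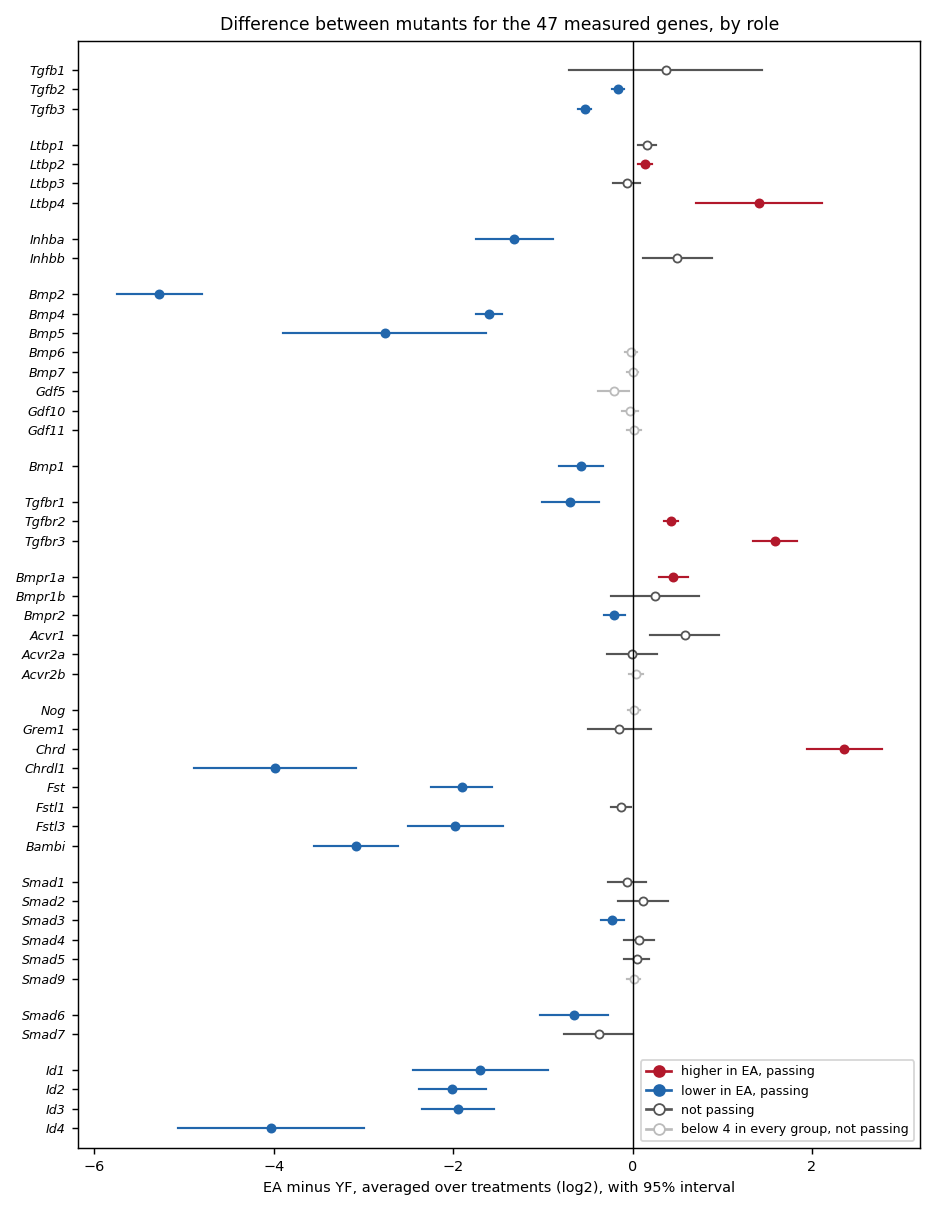
Each point is the EA minus YF difference of a gene's brightest probe set (log2, averaged over treatments) and each line its 95% interval from limma, not adjusted for the number of genes, with genes grouped by role from ligands at the top to ID genes at the bottom. Red points (6) passed and were higher in EA cells, blue points (19) passed and were lower, open points did not pass, and the pale open points are the 8 genes below 4 in every group.

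Bmp2 and Bmp4 encode closely related BMP ligands, and both were lower in EA cells with and without hormone. Bmp2 (1423635_at) read 4.10 and 3.41 with hormone and 4.46 and 3.95 without in EA cells, against 9.49 and 9.45 with hormone and 9.02 and 9.07 without in YF cells. EA arrays lay at or near the low bound and YF arrays near 9, so the groups did not overlap, and the size of the fold is uncertain because the EA mean was 3.98 (SD 0.43, n = 4). The difference was -5.28 (SE 0.19, adjusted p = 0.00012). Bmp4 (1422912_at) was bright in both mutants, at 12.004 and 11.85 with hormone and 12.13 and 12.29 without in EA cells, against 13.67 and 13.61 with hormone and 13.66 and 13.73 without in YF cells. The groups were separated by more than 1 log2 unit and the difference was -1.60 (SE 0.06, adjusted p = 0.00012, 3.03-fold lower).

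Bmp5, another ligand of the family, lay in the low group in EA cells and was uneven among YF arrays. It read 2.53 and 2.58 on the EA arrays with hormone and 2.50 and 2.49 on those without, against 3.28 and 5.28 on the YF arrays with hormone and 6.10 and 6.51 on those without. Replicate 1 of YF cells with hormone, the array that stood apart, held the lowest YF value. The averaged difference was -2.77 (SE 0.45, adjusted p = 0.013), and the call was lost without replicate 1 or 2 of EA cells with hormone (adjusted p = 0.058 in both cases) or without YF replicate 2 (0.052). The other ligands of the BMP and GDF group, Bmp6, Bmp7, Gdf5, Gdf10 and Gdf11, ranged from 2.07 to 2.65 over the 8 arrays.

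The 4 ID genes, classical immediate targets of BMP signalling, were lower in EA cells on every array. Id2 (1435176_a_at) read 7.95 and 8.22 with hormone and 8.65 and 8.72 without in EA cells, against 9.72 and 10.33 with hormone and 10.71 and 10.83 without in YF cells, a difference of -2.01 (SE 0.15, adjusted p = 0.0011, 4.03-fold lower). For Id3 (1416630_at) the values were 9.01 and 8.76 with hormone and 9.09 and 9.48 without in EA cells, against 11.32 and 10.78 with hormone and 11.08 and 10.96 without in YF cells, and the difference was -1.95 (SE 0.16, adjusted p = 0.0014, 3.86-fold lower). Id4 (1423259_at) spread more among EA arrays but again did not overlap, with 5.57 and 4.13 on the EA arrays with hormone and 4.95 and 6.12 on those without, against 8.71 and 8.92 on the YF arrays with hormone and 9.59 and 9.68 on those without. Its difference was -4.03 (SE 0.41, adjusted p = 0.0029, 16.4-fold lower), and 2 of its 2 probe sets above the low bound passed in this direction. Id1 (1425895_a_at) read 6.39 and 5.77 with hormone and 5.97 and 6.76 without in EA cells, against 8.33 and 7.42 with hormone and 7.94 and 7.98 without in YF cells, a difference of -1.70 (SE 0.30, adjusted p = 0.018, 3.24-fold lower). The Id1 call was lost without replicate 2 of EA cells with hormone (adjusted p = 0.067), without YF replicate 1 (0.060) and without YF replicate 2 (0.062).

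Bambi encodes a transmembrane decoy receptor without a kinase domain and is itself a BMP-responsive gene. It read 5.29 and 4.83 with hormone and 6.69 and 6.05 without in EA cells, against 8.71 and 8.61 with hormone and 8.79 and 9.07 without in YF cells. The EA arrays with hormone were the lowest of the 8, and no EA array reached the YF range. The averaged difference was -3.08 (SE 0.19, adjusted p = 0.00060, 8.46-fold lower).

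**Figure D2:**
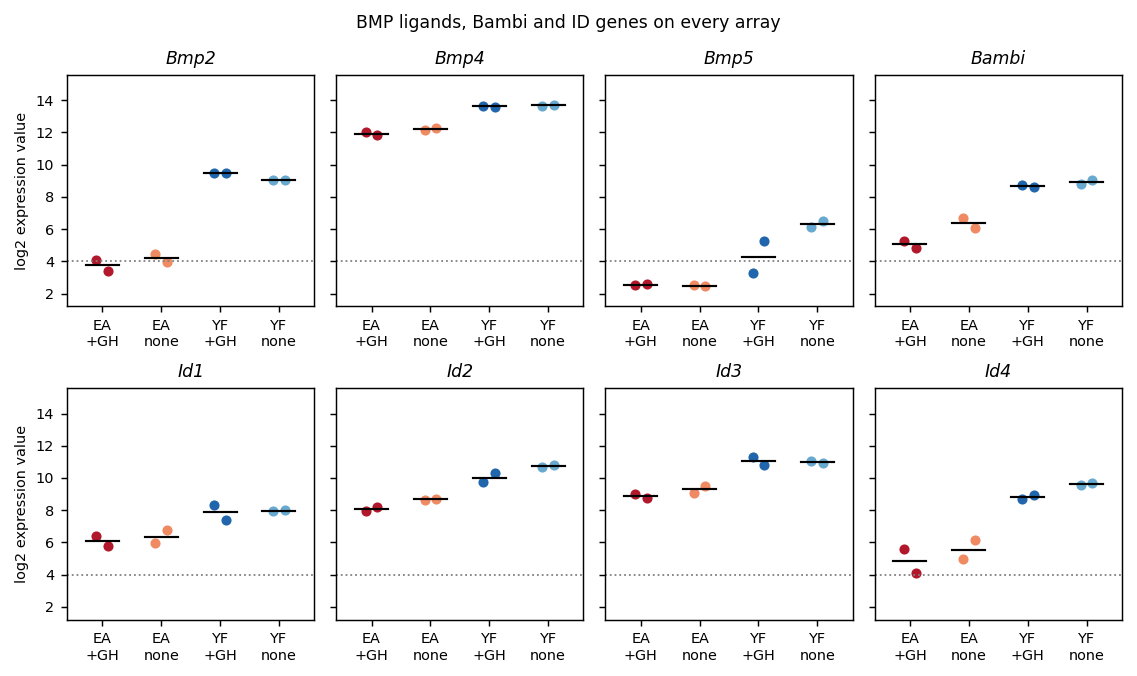
Log2 expression values of Bmp2, Bmp4, Bmp5, Bambi and the ID genes on every array, with EA cells with growth hormone (+GH) and without (none) left of YF cells with and without. Points are arrays (n = 2 a group), black bars are group means and the dotted line marks the low bound of 4; in every panel the 4 EA points lie below the 4 YF points.

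The start-site regions of some genes that passed are printed to show the letters around them. Bmp4, Id2, Id3 and Id4 were lower in EA cells, and the BMP antagonist gene Chrd was higher. No promoter entry was found for Bmp2, Id1 or Chrdl1. Sequences are from RefSeq (GRCm38.p6), cover 250 bases before to 50 after the start site, and run 5′ to 3′ on the gene's strand. Capitals mark matches, on either strand, to CAGACA (a SMAD-binding element), GGCGCC (a GC-rich SMAD motif) or TTCNNNGAA (a STAT motif). The regions are chr14:46390620-46390919 (minus strand) for Bmp4, chr12:25096043-25096342 (minus) for Id2, chr4:136143572-136143871 (plus) for Id3, chr13:48260866-48261165 (plus) for Id4 and chr16:20732877-20733176 (plus) for Chrd.
Bmp4: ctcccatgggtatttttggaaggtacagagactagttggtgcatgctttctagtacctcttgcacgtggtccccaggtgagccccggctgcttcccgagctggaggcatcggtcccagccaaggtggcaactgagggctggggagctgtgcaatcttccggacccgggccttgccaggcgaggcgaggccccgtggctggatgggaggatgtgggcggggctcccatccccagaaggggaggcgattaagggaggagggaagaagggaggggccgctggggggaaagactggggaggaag
Id2: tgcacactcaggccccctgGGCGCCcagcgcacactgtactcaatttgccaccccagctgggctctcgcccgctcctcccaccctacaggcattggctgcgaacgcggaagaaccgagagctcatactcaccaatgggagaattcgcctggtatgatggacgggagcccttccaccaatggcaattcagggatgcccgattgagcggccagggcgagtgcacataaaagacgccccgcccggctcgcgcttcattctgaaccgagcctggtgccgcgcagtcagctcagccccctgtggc
Id3: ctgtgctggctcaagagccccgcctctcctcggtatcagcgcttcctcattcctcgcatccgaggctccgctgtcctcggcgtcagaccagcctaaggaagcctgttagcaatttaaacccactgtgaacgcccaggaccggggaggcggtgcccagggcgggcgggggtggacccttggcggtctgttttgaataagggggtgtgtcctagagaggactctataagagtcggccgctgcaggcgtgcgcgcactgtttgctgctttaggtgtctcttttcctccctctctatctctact
Id4: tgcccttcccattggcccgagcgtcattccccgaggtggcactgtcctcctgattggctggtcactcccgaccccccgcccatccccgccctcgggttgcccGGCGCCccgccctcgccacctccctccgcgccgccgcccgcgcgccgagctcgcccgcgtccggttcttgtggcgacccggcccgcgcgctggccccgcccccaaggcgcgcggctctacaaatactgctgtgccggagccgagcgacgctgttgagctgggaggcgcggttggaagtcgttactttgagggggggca
Chrd: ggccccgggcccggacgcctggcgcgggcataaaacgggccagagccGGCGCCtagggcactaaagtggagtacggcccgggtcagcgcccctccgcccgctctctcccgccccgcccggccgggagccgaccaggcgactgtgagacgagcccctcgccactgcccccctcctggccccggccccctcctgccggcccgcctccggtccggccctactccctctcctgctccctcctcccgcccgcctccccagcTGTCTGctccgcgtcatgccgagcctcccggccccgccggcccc

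Id2 and Id4 held 1 match to GGCGCC each, Chrd held 1 to GGCGCC and 1 to CAGACA, and Bmp4 and Id3 held no match in these windows. A promoter entry was found for 33 of the 47 genes, with 41 promoters. GGCGCC occurred in 13 of the 41 (31.7%) and in 11.9% of all 32851 promoters, CAGACA in 8 (19.5%) and in 21.0% of all, and TTCNNNGAA in 0 of the 41 and in 8.30% of all. GGCGCC stood in 4 of the 7 promoters of genes higher in EA cells and in 4 of the 13 of genes lower. Those promoters came from 5 and 12 genes, so a gene with several start sites counts more than once. The sets were not matched for base composition, which matters for a motif made of G and C alone. All these counts are matches of letters in a short window and say nothing of binding.

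Extracellular antagonists and the decoy Bambi went in both directions. Of 8 genes, 1 was higher in EA cells, 4 were lower, 2 measured above the low bound did not pass (Grem1 and Fstl1), and Nog lay between 1.82 and 1.92. Chrdl1, which encodes the BMP antagonist chordin-like 1, read 5.76 and 7.05 on the EA arrays with hormone and 7.33 and 6.68 on those without, against 10.04 and 10.76 on the YF arrays with hormone and 10.90 and 11.07 on those without (1434201_at). The lowest YF array lay well above the highest EA array, and the difference was -3.99 (SE 0.35, adjusted p = 0.0019, 15.8-fold lower). All 3 of its probe sets above the low bound passed, with differences of -4.11 to -3.78. Chrd, which encodes the BMP antagonist chordin, went the other way, with 4.86 and 4.40 with hormone and 4.88 and 4.29 without in EA cells, against 2.35 and 2.24 with hormone and 2.20 and 2.19 without in YF cells (1417304_at). YF arrays were in the low group and EA arrays just above it, so the size of its difference, 2.36 (SE 0.17, adjusted p = 0.00094), is uncertain.

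Fst and Fstl3 encode follistatin and follistatin-like 3, which bind and neutralise activins, and both were lower in EA cells. Fst (1434458_at) read 10.38 and 10.43 with hormone and 9.66 and 9.76 without in EA cells, against 11.42 and 12.01 with hormone and 12.20 and 12.23 without in YF cells. The difference between the mutants was -1.31 (SE 0.19, adjusted p = 0.015) with hormone and -2.50 (SE 0.19, adjusted p = 0.0022) without, and the difference of the hormone responses did not pass (1.19, adjusted p = 0.34). The call with hormone was lost without replicate 1 (adjusted p = 0.066) or 2 (0.085) of EA cells with hormone, and when only the arrays with hormone were fitted (0.083). Fstl3 (1422803_at) read 8.24 and 7.99 on the EA arrays with hormone and 7.79 and 8.33 on those without, against 10.62 and 9.89 on the YF arrays with hormone and 9.96 and 9.78 on those without, a difference of -1.98 (SE 0.21, adjusted p = 0.0033, 3.93-fold lower). All 4 EA arrays lay under 9 and all 4 YF arrays above it.

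Grem1, which encodes the BMP antagonist gremlin 1, overlapped between the mutants at 10.53 to 11.04 in EA cells and 10.76 to 11.21 in YF cells. Its difference was -0.15, 95% interval -0.50 to 0.21, adjusted p = 0.67. Fstl1 differed by -0.13, 95% interval -0.24 to -0.01, adjusted p = 0.14, although its second probe set passed at -0.32 (adjusted p = 0.0072).

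**Figure D3:**
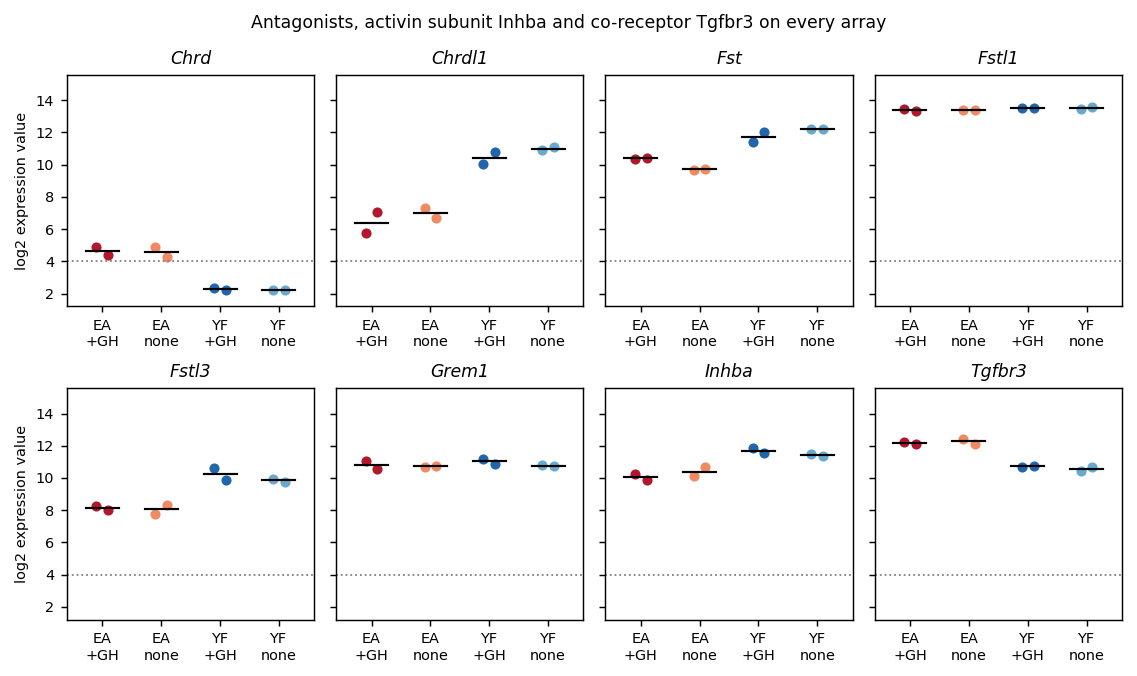
Log2 expression values of the antagonists Chrd, Chrdl1, Fst, Fstl1, Fstl3 and Grem1, the activin subunit Inhba and the co-receptor Tgfbr3 on every array, EA cells left of YF cells and growth hormone (+GH) left of none. Points are arrays (n = 2 a group), bars are group means and the dotted line is the low bound of 4; Chrd and Tgfbr3 lie higher in EA cells, Chrdl1, Fst, Fstl3 and Inhba lower, and Grem1 overlaps.

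Of the 3 TGF-beta ligands, Tgfb2 and Tgfb3 passed as lower in EA cells. Tgfb3 was lower in EA cells, at 11.71 and 11.78 with hormone and 11.89 and 11.85 without in EA cells, against 12.46 and 12.41 with hormone and 12.24 and 12.26 without in YF cells, a difference of -0.53 (SE 0.03, adjusted p = 0.00041, 1.45-fold lower). The mutants did not overlap, and the gap was -0.69 (SE 0.04, adjusted p = 0.0011) with hormone and -0.38 (SE 0.04, adjusted p = 0.0058) without. Tgfb2 read 12.52 and 12.48 with hormone and 12.68 and 12.71 without in EA cells, against 12.61 and 12.63 with hormone and 12.86 and 12.92 without in YF cells. The difference was small, -0.16 (SE 0.03, adjusted p = 0.015, 1.12-fold lower), the mutants overlapped across treatments, and the 4 probe sets disagreed: 2 passed as lower and the highest stood at 0.29 without passing. Tgfb1 scattered near the low bound, between 4.67 and 5.22 in EA cells and between 3.45 and 6.01 in YF cells, and did not pass (0.37, 95% interval -0.71 to 1.45, adjusted p = 0.70).

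Of the genes named for latent TGF-beta binding proteins, Ltbp2 and Ltbp4 passed as higher in EA cells, and Ltbp1 and Ltbp3 did not pass. Ltbp4 read 6.87 and 6.41 on the EA arrays with hormone and 6.51 and 6.76 on those without, against 5.96 and 4.92 on the YF arrays with hormone and 5.26 and 4.78 on those without, a difference of 1.41 (SE 0.28, adjusted p = 0.026, 2.65-fold higher), and its call was lost without any one of 6 arrays (adjusted p = 0.054 to 0.090), which were all but the YF arrays with hormone. Ltbp2, a matrix protein of the same family, read 13.69 and 13.74 with hormone and 13.80 and 13.74 without in EA cells, against 13.53 and 13.59 with hormone and 13.63 and 13.66 without in YF cells. That difference of 0.14 (SE 0.03, adjusted p = 0.040) lost its call whichever array was left out (adjusted p = 0.057 to 0.14), and also with the filter on probe sets with a mean of 4 or more (0.15), the replicate number as a block (0.079) or a variance trend (0.062). The difference was 0.16, 95% interval 0.06 to 0.26, adjusted p = 0.056 for Ltbp1, and -0.07, 95% interval -0.21 to 0.08, adjusted p = 0.64 for Ltbp3. A dimmer Ltbp1 probe set (1419786_at) passed in the opposite direction, at -1.11 (SE 0.07).

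Inhba encodes the subunit of activin A and was lower in EA cells. It read 10.28 and 9.88 with hormone and 10.11 and 10.69 without in EA cells, against 11.83 and 11.53 with hormone and 11.47 and 11.39 without in YF cells. No EA array reached the YF range, and the averaged difference was -1.32 (SE 0.17, adjusted p = 0.0061, 2.49-fold lower). Inhbb, the subunit of activin B, was 9.54 to 10.13 in EA cells and 8.999 to 9.63 in YF cells and did not pass (0.50, 95% interval 0.11 to 0.88, adjusted p = 0.099). Bmp1 is named for its discovery with the BMPs but encodes a metalloprotease that processes procollagens and cleaves chordin. It read 9.76 and 9.68 on the EA arrays with hormone and 10.00 and 9.80 on those without, against 10.48 and 10.28 on the YF arrays with hormone and 10.23 and 10.55 on those without, a difference of -0.57 (SE 0.10, adjusted p = 0.016, 1.49-fold lower), and the call was lost without EA replicate 2 (adjusted p = 0.053) or without replicate 1 (0.057) or 2 (0.067) of EA cells with hormone.

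Of the TGF-beta receptors, Tgfbr3, which encodes the co-receptor betaglycan, had the widest gap. It read 12.24 and 12.09 with hormone and 12.45 and 12.14 without in EA cells, against 10.68 and 10.76 with hormone and 10.45 and 10.69 without in YF cells (1433795_at), and the difference was 1.58 (SE 0.10, adjusted p = 0.00061, 2.997-fold higher). Both of its probe sets passed as higher in EA cells. Tgfbr2, the type II receptor, was also higher, at 12.86 and 12.87 with hormone and 12.98 and 12.90 without in EA cells, against 12.53 and 12.54 with hormone and 12.38 and 12.46 without in YF cells, a difference of 0.43 (SE 0.03, adjusted p = 0.0011, 1.34-fold higher). Tgfbr1, the type I receptor, was lower, at 11.39 and 11.67 on the EA arrays with hormone and 11.27 and 11.07 on those without, against 11.68 and 12.11 on the YF arrays with hormone and 12.13 and 12.26 on those without. Its difference of -0.69 (SE 0.13, adjusted p = 0.020, 1.62-fold lower) was made up of -0.37 (SE 0.18, adjusted p = 0.29) with hormone and -1.02 (SE 0.18, adjusted p = 0.025) without, and the difference of the hormone responses did not pass. The call without hormone was lost without any one of the 4 arrays it compares (adjusted p = 0.077 to 0.12). The averaged call was lost without EA replicate 2 (adjusted p = 0.065), replicate 1 of EA cells with hormone (0.068), YF replicate 1 (0.055) or YF replicate 2 (0.071).

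Of 6 BMP and activin receptors, 1 was higher in EA cells and 1 lower. Bmpr1a, a BMP type I receptor, read 12.31 and 12.28 with hormone and 12.44 and 12.30 without in EA cells, against 11.70 and 11.89 with hormone and 11.89 and 12.03 without in YF cells. That was a difference of 0.45 (SE 0.06, adjusted p = 0.0083, 1.37-fold higher), and 3 of its 5 probe sets above the low bound passed as higher in EA cells, while the lowest stood at -0.32 without passing. Bmpr2, the BMP type II receptor, read 13.33 and 13.42 with hormone and 13.39 and 13.27 without in EA cells, against 13.47 and 13.51 with hormone and 13.57 and 13.67 without in YF cells, a difference of -0.20 (SE 0.05, adjusted p = 0.037) that lost its call whichever array was left out (adjusted p = 0.050 to 0.12), with the filter on probe sets with a mean of 4 or more (0.068) and with the replicate number as a block (0.070). Its second probe set above the low bound had the opposite sign without passing, at 0.12 (SE 0.09). Acvr1 lay higher on all 4 EA arrays without passing (0.58, 95% interval 0.20 to 0.97, adjusted p = 0.063). Bmpr1b (0.25, 95% interval -0.24 to 0.74, adjusted p = 0.60) and Acvr2a (-0.01, 95% interval -0.28 to 0.27, adjusted p = 0.97) overlapped between the mutants, and Acvr2b ranged from 2.25 to 2.39.

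Of the signalling SMADs, the intracellular messengers, Smad3 passed. Smad3 read 12.86 and 12.91 on the EA arrays with hormone and 13.06 and 12.99 on those without, against 13.35 and 13.17 on the YF arrays with hormone and 13.06 and 13.14 on those without, a difference of -0.22 (SE 0.05, adjusted p = 0.045) whose call was lost without any one of 7 arrays, all but replicate 2 of YF cells with hormone (adjusted p = 0.059 to 0.14). It was also lost with centring (0.053), with the filter on probe sets with a mean of 4 or more (0.060), after quantile normalization (0.055) and with the replicate number as a block (0.079). Smad1, Smad2, Smad4 and Smad5 did not pass, with differences of -0.06 (95% interval -0.28 to 0.15) for Smad1, 0.12 (-0.16 to 0.40) for Smad2, 0.07 (-0.10 to 0.23) for Smad4 and 0.04 (-0.09 to 0.18) for Smad5. A dimmer Smad2 probe set passed at -0.75 (SE 0.08). The second Smad3 probe set above the low bound (1450472_s_at) did not pass, at -0.006. It averaged 4.06 in EA cells and 4.07 in YF cells. Smad9 lay between 1.89 and 1.99 on all arrays.

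The inhibitory SMADs are induced by the pathway and act back on it. Smad6 read 8.56 and 8.37 with hormone and 8.39 and 8.42 without in EA cells, against 9.59 and 8.93 with hormone and 8.90 and 8.93 without in YF cells. Its difference was -0.65 (SE 0.15, adjusted p = 0.042, 1.57-fold lower), and the call was lost without any one of 6 arrays, all but the YF arrays with hormone (adjusted p = 0.097 to 0.14), and with each array centred on its median (0.062). Smad7 read 11.43 and 11.89 with hormone and 11.66 and 11.89 without in EA cells, against 11.77 and 12.11 with hormone and 12.43 and 12.10 without in YF cells, which overlapped between the mutants and did not pass (-0.38, 95% interval -0.77 to 0.01, adjusted p = 0.20); its second probe set passed at -0.52 (SE 0.09). Of the 25 calls in the average, 15 held for the brightest probe set under each alternative in which it was tested and with any array left out: Tgfb3, Inhba, Bmp2, Bmp4, Tgfbr2, Tgfbr3, Bmpr1a, Chrd, Chrdl1, Fst, Fstl3, Bambi, Id2, Id3 and Id4. Chrd was not tested with the filter on probe sets with a mean of 4 or more, since its mean over the 8 arrays lay below it. For the remaining 10 the brightest probe set kept its direction in each case and lost the call in at least 1. Tgfb2 lost it without EA replicate 1 (adjusted p = 0.070), EA replicate 2 (0.055) or YF replicate 2 (0.061), with each array centred on its median (0.058), with the filter (0.098) and with a variance trend (just above the threshold).

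Listed targets of BMP signalling were mostly lower in EA cells. Of 16 listed BMP targets 15 were measured, 10 were lower in EA cells and 1 was higher, against 10.5% lower and 12.3% higher of all named genes. Of the 15, 12 had a mean of 4 or more in at least 1 group, where 16.8% of all named genes were lower and 19.8% higher. The median difference of the 15 was -1.70, against 0.02 over all named genes. The list was chosen with earlier results of these data known, so these counts are no independent test. Since 8 of the 16 are among the genes above, the other 8 were also counted alone: 7 were measured, 4 were lower and 1 higher, and the median was -1.45. The lower ones were Msx1 (-2.45, SE 0.06), Atoh8 (-2.75, SE 0.29), Hey1 (-1.72, SE 0.28) and Msx2 (-1.45, SE 0.27), which all encode transcription factors. Msx1 averaged 7.65 ± 0.08 in EA cells and 10.10 ± 0.33 in YF cells (SD, n = 4 each), and Atoh8 averaged 4.64 ± 0.22 in EA cells and 7.38 ± 0.68 in YF cells. Gata2 was higher (0.33, SE 0.05), and Sp7 and Dlx5 lay below 4 in every group.

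TGF-beta targets in fibroblasts were mixed in direction. Of 24 listed, 23 were measured, 12 were lower in EA cells and 5 higher, against 10.5% lower and 12.3% higher of all named genes, with a median of -0.20 against 0.02. Of the 23, 21 had a mean of 4 or more in at least 1 group, where 16.8% of all named genes were lower and 19.8% higher. This list too was chosen with earlier results of these data known. The widest gaps were Cnn1, which encodes the contractile protein calponin (-4.82, SE 0.19), the transcription factor Snai1 (-1.60, SE 0.19), the matrix gene Comp (-1.39, SE 0.10) and Ccn2, connective tissue growth factor (-1.19, SE 0.09). Cnn1, Snai1, Comp and Ccn2 were all lower in EA cells, and the largest upward difference on the list was 0.79. Cnn1 averaged 5.56 ± 0.34 in EA cells and 10.38 ± 0.13 in YF cells. Collagens Col1a2 and Col3a1 did not pass. Without Ltbp2, which is also among the 47 genes, 22 were measured, 12 were lower and 4 higher, with a median of -0.22.

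**Figure D4:**
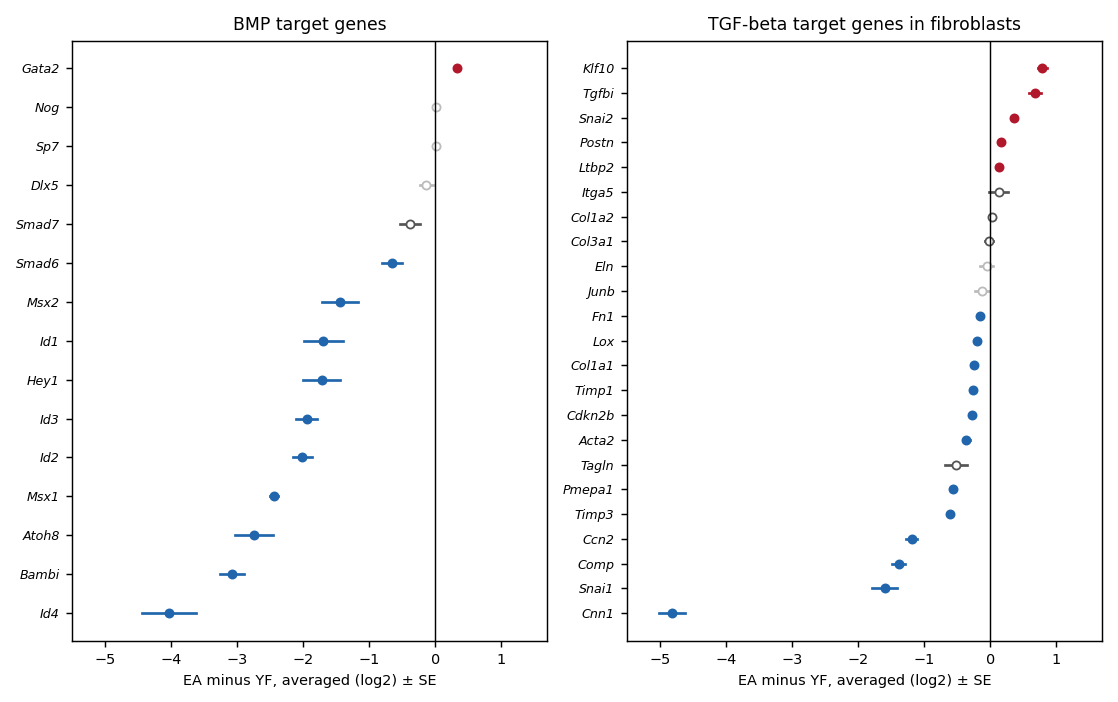
EA minus YF differences (log2, averaged over treatments) of the measured BMP targets (left, 15 genes) and TGF-beta targets (right, 23 genes), with lines for ± SE from limma. Filled red and blue points passed as higher or lower in EA cells, open points did not pass, and pale open points are below 4 in every group; 10 BMP targets lie at the blue end against 1 red, and of the TGF-beta targets 12 are blue and 5 red.

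Further lists from the pathway were counted in the same way, and their counts stand against 22.9% of all named genes and 36.7% of those with a mean of 4 or more in at least 1 group. Among 14 listed genes for storage and activation of latent TGF-beta, 12 were measured, 3 were higher and 3 lower: the protease gene Mmp9 (2.92, SE 0.20), the integrin subunit Itgb8 (1.44, SE 0.14) and the fibrillin gene Fbn2 (1.40, SE 0.14) were higher, and the protease gene Mmp2 (-1.44, SE 0.07) had the widest gap among the lower ones. Of 10 measured further antagonists, Bmper, which encodes a BMP-binding secreted protein, passed at -2.51 (SE 0.05). Of 14 measured further ligands 1 passed, Inha (0.78, SE 0.16), with 13 below 4 in every group. Of 8 further receptors and co-receptors 1 passed, Rgma (0.89, SE 0.19), which encodes a BMP co-receptor. Of 14 SMAD cofactors and ubiquitin ligases, 1 was higher (Tgif1, 0.52) and 3 were lower (Runx1, -1.16; Tgif2, -1.02; Zfyve9, -0.46).

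Some markers of cell identity differed between the mutants too, and their part in the results above was not tested. All marker counts stand against 22.9% of all named genes that passed in either direction. Among named genes with a mean of 4 or more in at least 1 group it was 36.7%, and 12 of the 13 fibroblast markers had such a mean. Of 13 measured fibroblast markers, Col1a1, Col1a2, Col3a1, Vim and Prrx1 read between 13.50 and 15.00 on all arrays, 5 were lower in EA cells and none higher. The lower ones included Thy1, at 7.62 ± 0.16 in EA cells and 12.59 ± 0.11 in YF cells (-4.96, SE 0.09), and Dcn, at 3.33 ± 0.59 in EA cells, below the bound, and 7.78 ± 0.45 in YF cells. The summed level of the fibroblast list was 17.16 to 17.21 in EA cells and 17.28 to 17.33 in YF cells, as log2 of the sum.

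Smooth muscle markers were lower in EA cells too. Of 6 measured, 4 were lower in EA cells (Acta2, Cnn1, Actg2 and Myh11, the last below 4 in EA cells), and the summed level was 14.67 to 14.94 in EA cells and 15.29 to 15.49 in YF cells, with Des below 4 on every array. Among mesothelial markers, Msln was 8.14 ± 0.20 in EA cells and 2.27 ± 0.03 in YF cells, while Wt1 was 2.48 ± 0.05 in EA cells and 7.77 ± 0.62 in YF cells; the other 3 of 5 were below 4 on every array, and the sums overlapped (8.05 to 8.51 in EA cells, 7.15 to 8.48 in YF cells). Of 6 measured cartilage and bone markers, Sox9 was higher in EA cells and Col2a1 was lower, with Col2a1 below 4 in EA cells. Acan also passed as lower but was below 4 on every array, as were Col9a1, Sp7 and Ibsp. The summed level of this list was 9.03 to 9.40 in EA cells and 9.46 to 9.83 in YF cells.

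Markers of blood, vessel and epithelial cells were mostly at the low end. Of 8 macrophage markers 1 passed, Cd68 (3.15, SE 0.15), with sums of 11.06 to 11.49 in EA cells and 9.07 to 9.89 in YF cells. Ptprc, Adgre1, Itgam and Fcgr1 were below 4 on every array, and Csf1r, Cd14 and Lyz2 did not pass. Of the 8 markers 3 had a mean of 4 or more in at least 1 group, and 2 lay higher on all EA arrays than on all YF arrays. Of 6 endothelial markers, Pecam1, Cdh5, Kdr, Tie1 and Emcn were below 4 on every array, and Tek was lower in EA cells (-1.58, SE 0.16), with sums of 8.15 to 8.37 in EA cells and 9.47 to 10.08 in YF cells. All 6 epithelial markers were below 4 on every array, with sums of 4.96 to 5.004 in EA cells and 4.85 to 4.91 in YF cells, and 1 of them, Krt18, passed at 0.39.

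Growth hormone for 120 minutes changed none of the 47 genes past the threshold in limma. The counts were 0 in EA cells and 0 in YF cells (0.198% of all named genes passed in each), 0 averaged over the mutants (0.319%) and 0 for the difference of the responses (0.0220%). At an unadjusted p under 0.05 in limma there were 6 of the 47 genes in EA cells (1 up, 5 down) and 8 in YF cells (2 up, 6 down). The average over mutants had 4 and the difference of the responses 9. Of all 18193 named genes, 1258 had such a p in EA cells and 2566 in YF cells. The average had 1836 of them and the difference of the responses 2004. Of the 39 genes above the low bound in some group, 34 in each mutant had a hormone difference smaller than 0.5. None of the genes on the pathway lists passed for hormone either.

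Among the 12 genes with the largest average hormone difference, Bambi had the widest one in EA cells. In EA cells it read 5.29 and 4.83 with hormone, against 6.69 and 6.05 without (-1.31, SE 0.26, adjusted p = 0.35), and in YF cells it read 8.71 and 8.61 with hormone, against 8.79 and 9.07 without (-0.27, SE 0.26, adjusted p = 0.56). The EA arrays with hormone lay below those without, but with 2 arrays a group the difference did not pass. Id2 had the same sign in both mutants, in EA cells (-0.60, SE 0.21, adjusted p = 0.76) and YF cells (-0.74, SE 0.21, adjusted p = 0.31), and all hormone arrays were below all unstimulated arrays of their mutant. Id4 did not pass in EA cells (-0.69, SE 0.58, adjusted p = 0.87) or YF cells (-0.82, SE 0.58, adjusted p = 0.55). Neither did Chrdl1 in EA cells (-0.60, SE 0.50, adjusted p = 0.87) or YF cells (-0.59, SE 0.50, adjusted p = 0.55). Fst, which was not among the 12, had opposite signs in the mutants and passed in neither. Its difference of 0.69 was the largest rise in EA cells, and in YF cells it differed by -0.50 (SE 0.19, adjusted p = 0.43 in limma).

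Tgfb2 had the smallest adjusted p of the 47 genes in the average over mutants. It read 12.52 and 12.48 with hormone in EA cells, against 12.68 and 12.71 without, and 12.61 and 12.63 with hormone in YF cells, against 12.86 and 12.92 without. On this brightest probe set all arrays with hormone were lower than those without in the same mutant, as they were on 1438303_at. In YF cells, 1450922_a_at averaged 10.52 with hormone and 10.54 without, and 1423250_a_at averaged 9.77 with hormone and 9.71 without. For the brightest probe set the average difference in limma was -0.23 (SE 0.03, adjusted p = 0.073). After quantile normalization it passed, at -0.24 (adjusted p = 0.047).

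Bmp5 and Tgfb1 had the widest average differences, and in both the array that stood apart, replicate 1 of YF cells with hormone, was the YF array farthest from those without hormone. Bmp5 read 3.28 and 5.28 with hormone in YF cells, against 6.10 and 6.51 without (-2.03, SE 0.63, adjusted p = 0.35), and in EA cells it stayed in the low group. Tgfb1 read 6.01 and 4.26 with hormone in YF cells, against 4.10 and 3.45 without (1.36, SE 0.60, adjusted p = 0.48). When replicate 2 of YF cells with hormone was left out, so that the array that stood apart was alone in its group and was assumed to vary like the other groups, Bmp5 (-3.03, adjusted p = 0.016) and Fst (-0.79, adjusted p = 0.024) passed in YF cells. Bmp5 (-1.48, adjusted p = 0.034) and Id2 (-0.82, adjusted p = 0.048) then passed in the average, and Bmp5 (3.09, adjusted p = 0.038) and Fst (1.48, adjusted p = 0.033) for the difference of the responses.

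Inhbb did not pass in either mutant. It read 9.62 and 9.54 with hormone in EA cells, against 10.13 and 9.98 without (-0.48, SE 0.21, adjusted p = 0.87), so the EA arrays with hormone lay below those without. In YF cells it differed by -0.01. Fstl3, Smad7, Ltbp4 and Smad6 had average differences of 0.22, -0.22, 0.21 and 0.20, each within 2 SE of 0.

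**Figure D5:**
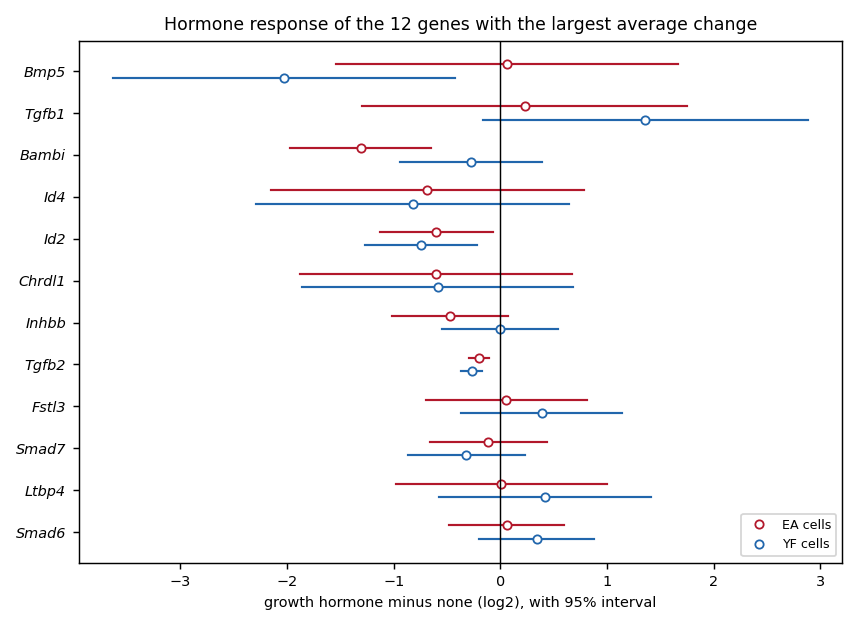
Growth hormone minus none (log2) for the 12 genes with the largest average hormone difference, in EA cells (red, upper of each pair) and YF cells (blue, lower), with 95% intervals from limma not adjusted for the number of genes. All points are open because none passed after adjustment; Bambi in EA cells, Bmp5 in YF cells, and Id2 and Tgfb2 in both have intervals that leave out 0.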

How the data were processed

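Biotin-labelled RNA, extracted with TRIzol per the labels, was read on 8 arrays. The log2 expression values, 1 per probe set and array, are used as deposited by the authors. The submitters' processing notes name GCOS and RMA, without versions. The number of arrays limits the precision.

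Of 45101 probe sets, 64 controls were left out. Of the rest, 34945 carried 1 symbol, 932 several and 9160 none in the platform annotation; 34741 matched a RefSeq gene (GRCm38.p6). Each gene stands by its brightest probe set over the 8 arrays.

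Differences were tested with limma 3.58.1 (R 4.3.3; lmFit and eBayes, no trend), with 4 group means over 8 arrays and 4 residual degrees of freedom, two-sided, with Benjamini-Hochberg adjustment over 45037 probe sets. The code was tested on simulated data. Each p sets a difference against the spread between arrays within the groups. The labels do not say whether that spread holds variation between infected populations.

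The genes and lists were chosen with earlier results of these data known. Values on every array are given for genes that passed and, for hormone, for the 12 with the largest average difference. Alternatives were quantile normalization, centring, a filter on dim probe sets, a variance trend, the replicate number as a block, fewer arrays and any probe set of a gene. Replicate numbers were not taken as pairs.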

Additional observations from a re-analysis of the deposited data

How the results depend on the processing

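The count of the 47 genes that passed between EA and YF cells depended on which arrays were used. The share of all named genes that passed in the same fits is not given here. The counts therefore do not show whether the 47 genes changed more than the rest. With 1 array left out it ran from 16 to 26 averaged over treatments, from 9 to 19 with hormone and from 9 to 20 without. For hormone it was 0 in EA cells with any array left out, and 0 to 2 in YF cells, in the average over mutants and for the difference of the responses; the 2 came in each case without replicate 2 of YF cells with hormone. The other alternatives gave 21 to 29 averaged over treatments, 15 to 21 without hormone and 9 to 21 with hormone. The 9 with hormone came from fitting only the arrays of that contrast, where fewer samples estimate the spread. Quantile normalization gave 1 gene for hormone averaged over mutants; the cause was not tested. With the replicate block, 23 genes passed averaged over treatments, 14 with hormone and 15 without, and 0 for each hormone comparison. Of the 25 averaged calls 22 were kept with the block, and those of Ltbp2, Bmpr2 and Smad3 were lost. The correlation of same-numbered arrays between groups ran from -0.303 to 0.367, so the numbers were not taken as pairs. The alternatives gave 323 values for the 25 named genes in the average, and 0 changed sign, 259 kept their call and 64 lost it. With only probe sets of mean 4 or more tested, 37 of the 47 genes had a test. Values below 4 carry no known scale, which limits the folds of Bmp2, Bmp5 and Chrd.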
